A study of Mus musculus with 2 samples.

Results

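The miR-200 family is a group of 5 related mouse miRNAs, and its 3p arms were followed here in small RNA sequencing libraries of Th17 and Th0 helper T cells. The members were chosen by name as the rows for miR-200b-3p, miR-200a-3p, miR-429-3p, miR-200c-3p and miR-141-3p, and all 5 were listed in both libraries, out of 1125 miRNAs listed in at least 1 library. The Th17 library came from naive CD4+CD62L+ T cells of the spleen of female C57BL/6 mice, cultured with 10% serum, 1 µg/ml of anti-CD28 and 5 µg/ml each of antibodies against IL-4, IFN-γ, IL-2 and IL-12 for 6 to 7 days. Its cytokines were IL-6 and IL-23 (40 ng/ml each), IL-1β (10 ng/ml) and TGF-β (2 ng/ml). The Th0 library came from the same kind of cells with the same serum, anti-CD28, anti-IL-4 and anti-IFN-γ. The other antibodies and the cytokines are not listed for it. How long the Th0 cells were cultured is not given in the labels, so culture time and Th17 conditions cannot be told apart. Each group is 1 column of reads, although the series' design text states triplicates, so no test of the conditions was possible. Every interval below covers counting error alone, at a nominal 95%.

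The miR-200 family is best known from epithelia. There its members bind the mRNAs of Zeb1 and Zeb2, transcription factors that repress E-cadherin, and ZEB proteins in turn repress the miR-200 loci, a mutual repression that TGF-β is known to tip toward ZEB. A miRNA recognises its targets mainly through its seed, the bases from position 2 to position 8, and members with the same seed share most predicted targets. The family has 2 seeds that differ by 1 base, and each of its 2 loci encodes both.

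The mature sequences are shown because the seeds and the loci cross. They are RefSeq entries of build GRCm38.p6, with the seed in capitals. The first 3 come from chromosome 4 and the last 2 from chromosome 6.
miR-200b-3p: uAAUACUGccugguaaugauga
miR-200a-3p: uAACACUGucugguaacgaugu
miR-429-3p: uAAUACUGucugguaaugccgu
miR-200c-3p: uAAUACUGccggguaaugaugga
miR-141-3p: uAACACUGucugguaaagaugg
miR-200b-3p, miR-429-3p and miR-200c-3p share the seed AAUACUG, and miR-200a-3p and miR-141-3p share AACACUG. Counted from the 5′ end, the seeds differ by U4C. No mature entry outside the family had either seed among 1738 in the RefSeq table. The closest relatives lie on different chromosomes. miR-200b-3p and miR-200c-3p were identical at 20 of 22 positions, with U11G and A22G, and miR-200c-3p is 1 base longer. miR-200a-3p and miR-141-3p were also identical at 20 of 22 positions, with C17A and U22G. No source used here says how reads that match such close sequences were divided, so the split between the members of a close pair is uncertain to that degree.

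In mm10 coordinates (GENCODE M21), Mir200b (chr4:156055681-156055750), Mir200a (chr4:156054896-156054985) and Mir429 (chr4:156053905-156053987) lie on the minus strand within 1846 bases. All 3 are in introns of Ttll10, a gene on the same strand. Mir200b and Mir200a are also in introns of the noncoding transcript Gm13648, and Mir429 is within an exon of it. Mir200c (chr6:124718322-124718390) and Mir141 (chr6:124717914-124717985) lie on the minus strand of chromosome 6 within 477 bases, in introns of the noncoding gene Gm15884. Mir141 also overlaps an exon of the unconfirmed gene Gm29008 in part. The nearest coding gene on their strand was Ptpn6 (the phosphatase SHP-1 of blood cells), which lies 2317 bases from Mir200c.

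The Th17 library held 11975371 listed reads and the Th0 library 8358010. Levels are given as CPM, counts per 1000000 listed reads of the same library. The family as a whole was a small part of both libraries, with 2487 reads or 0.0208% of the listed reads in Th17 and 3232 reads or 0.0387% in Th0. The miRNAs used here as T cell markers were abundant in both. All 6 fixed T cell markers (miR-150-5p, miR-142a-3p, miR-142a-5p, miR-181a-5p, miR-342-3p and miR-155-5p) passed 10 CPM, and together they stood at 136717 CPM in Th17 and 102303 CPM in Th0. Of these sums, miR-142a-5p alone had 65898 CPM in Th17 and 58347 CPM in Th0.

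The order of the members differed between the libraries. In Th17 cells miR-141-3p was the highest, at 100.4 CPM (counting interval 94.8 to 106), followed by miR-200b-3p at 37.3 CPM (33.9 to 41.0), miR-200c-3p at 31.7 CPM (28.6 to 35.1), miR-429-3p at 25.9 CPM (23.1 to 28.9) and miR-200a-3p at 12.4 CPM (10.4 to 14.5). In Th0 cells miR-200b-3p stood at 141 CPM (133 to 150) and miR-141-3p at 134 CPM (126 to 142), followed by miR-429-3p at 51.2 CPM (46.5 to 56.3), miR-200a-3p at 37.1 CPM (33.1 to 41.5) and miR-200c-3p at 23.1 CPM (19.9 to 26.6). Neighbours whose counting intervals overlapped were miR-200b-3p with miR-200c-3p and miR-200c-3p with miR-429-3p in Th17, and miR-200b-3p with miR-141-3p in Th0. By reads, miR-141-3p ranked 150 among 1012 listed miRNAs in Th17 and 142 among 986 in Th0. miR-200b-3p ranked 209 in Th17 and 141 in Th0, and miR-200c-3p ranked 219 in Th17 and 244 in Th0. The mature lengths are 22 or 23 bases, so the order by reads is also close to the order per length. It remains an order of reads, since how well library preparation captured each sequence was not measured.

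**Figure D1:**
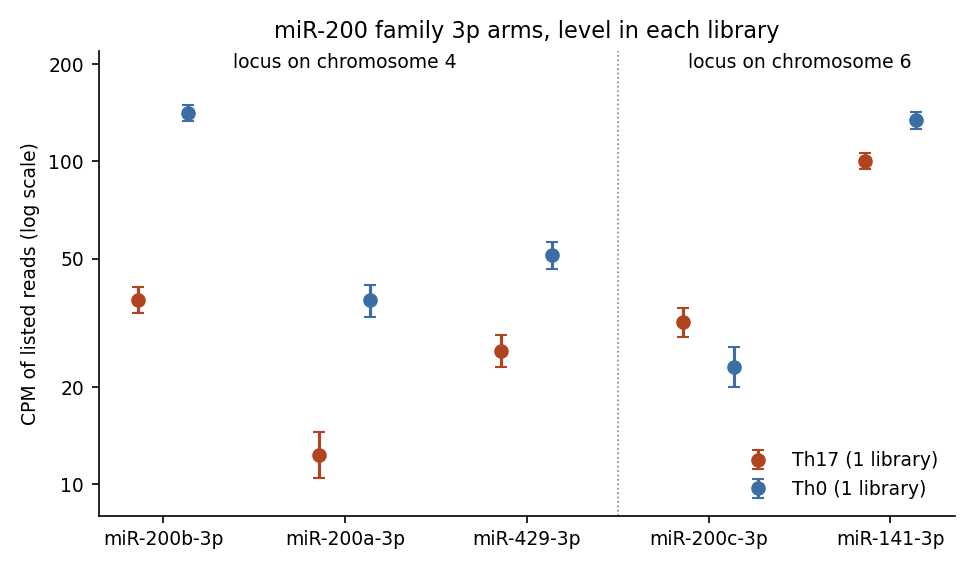
Level of each 3p arm in CPM of listed reads (log scale) in the Th17 library and the Th0 library, with 1 library per group. Points are the values and bars the exact 95% Poisson intervals of the read counts. The 3 members of the chromosome 4 locus and miR-141-3p were lower in Th17, and miR-200c-3p was higher.

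The members of the chromosome 4 locus were all lower in Th17 cells. miR-200b-3p, the member with most reads in Th0, had 447 reads or 37.3 CPM in Th17 and 1181 reads or 141 CPM in Th0. It was 3.79-fold lower (3.39 to 4.23), a log2 ratio of -1.91. Averaged over both libraries, 298 miRNAs reached 10 CPM, and 14 of them had a lower log2 ratio. miR-200a-3p, which carries the other seed, had 148 reads or 12.4 CPM in Th17 and 310 reads or 37.1 CPM in Th0, 3.0-fold lower (2.46 to 3.68). miR-429-3p had 310 reads or 25.9 CPM in Th17 and 428 reads or 51.2 CPM in Th0, 1.98-fold lower (1.71 to 2.3). Summed over the locus, these miRNAs stood at 75.6 CPM in Th17 and 229.6 CPM in Th0, 3.04-fold lower in Th17 (2.81 to 3.29). In a bulk culture, fewer cells that hold the family and fewer molecules per cell cannot be told apart.

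The chromosome 6 locus differed less, and its members went in opposite directions. miR-200c-3p had 380 reads or 31.7 CPM in Th17 and 193 reads or 23.1 CPM in Th0, 1.37-fold higher in Th17 (1.15 to 1.64). miR-141-3p, which is encoded beside it, had 1202 reads or 100.4 CPM in Th17 and 1120 reads or 134 CPM in Th0. It was 1.34-fold lower in Th17 (1.23 to 1.45). The sum of both was 132 CPM in Th17 and 157 CPM in Th0, 1.19-fold lower (1.10 to 1.28), with most of the reads in miR-141-3p.

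A miRNA was called when its mean was at least 10 CPM, its ratio at least 2-fold and its interval away from 1. By this rule 2 of the 5 members, miR-200b-3p and miR-200a-3p, were lower in Th17 and none was higher. Over all 298 miRNAs the same rule called 39 lower, or 13.1%, and 20 higher, or 6.71%. Among the 172 miRNAs with a mean of 10 to 200 CPM, the range that holds all 5 members, it called 29 lower, or 16.9%, and 10 higher, or 5.81%. miR-429-3p was just short of the fold, and it passed once the library totals were taken without the 10 most abundant miRNAs. With those totals the rule called 49 miRNAs lower in all. An interval below 1 was common at this depth. It was found for 4 of 5 members, for 47.7% of the 298 miRNAs and for 45.9% of the 172. An interval above 1 was found for 1 of 5 members, for 40.6% of the 298 and for 36.0% of the 172. The median log2 ratio was -0.97 over the members and -0.08 over the 298.

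**Figure D2:**
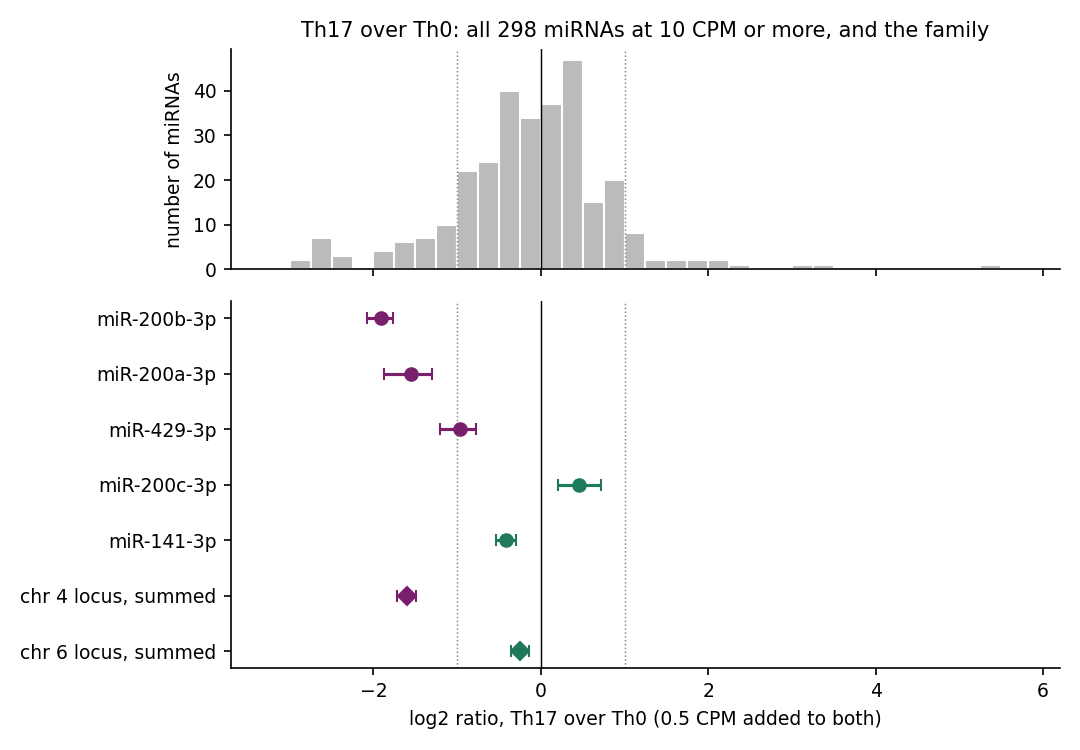
Log2 ratio of Th17 over Th0, with 0.5 CPM added to both values. The upper panel counts all 298 miRNAs that averaged 10 CPM or more, and the lower panel gives each family member and the sum of each locus with exact 95% counting intervals computed without that addition. Dotted lines mark 2-fold. The summed chromosome 4 locus was at -1.60 and the summed chromosome 6 locus at -0.25.

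The difference between the loci was set apart from library scaling by dividing 1 ratio by the other, since the library totals cancel. The Th17 over Th0 ratio of the chromosome 6 locus was 2.55 times that of the chromosome 4 locus (exact conditional interval 2.29 to 2.85). The difference was found within each seed. For the seed AACACUG, the ratio of miR-141-3p was 2.25 times that of miR-200a-3p (1.81 to 2.80). For the seed AAUACUG, the ratio of miR-200c-3p was 4.18 times that of miR-200b-3p and miR-429-3p together (3.43 to 5.11). Of the 6 pairs of members from different loci, all had intervals away from 1, also when widened for the 10 pairs compared. This count alone does not set the loci apart, since all 4 pairs within 1 locus also had intervals away from 1 before widening. Among 29 pairs of 3p miRNAs within 10000 bases, 24, or 82.8%, differed beyond their interval. The share for unrelated pairs from different loci was not computed. The smallest of the 6 ratios across loci was 1.48 for miR-141-3p over miR-429-3p (1.25 to 1.76). The largest was 5.2 for miR-200c-3p over miR-200b-3p (4.22 to 6.42). These intervals leave out the spread between cultures. Both close pairs of sequences shown above straddle the loci, so the uncertainty in dividing their reads also applies here.

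The make-up of the family differed between the libraries in the same way. The chromosome 6 locus held 63.6% of the family reads in Th17 (exact binomial interval 61.7 to 65.5%) and 40.6% in Th0 (38.9 to 42.3%). miR-141-3p alone held 48.3% in Th17 (46.4 to 50.3%) and 34.7% in Th0 (33.0 to 36.3%). miR-200b-3p held 18.0% in Th17 (16.5 to 19.5%) and 36.5% in Th0 (34.9 to 38.2%), and miR-200c-3p held 15.3% in Th17 (13.9 to 16.8%) and 5.97% in Th0 (5.18 to 6.84%). The share of miR-429-3p was 12.5% in Th17 (11.2 to 13.8%) and 13.2% in Th0 (12.1 to 14.5%), with overlapping intervals.

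**Figure D3:**
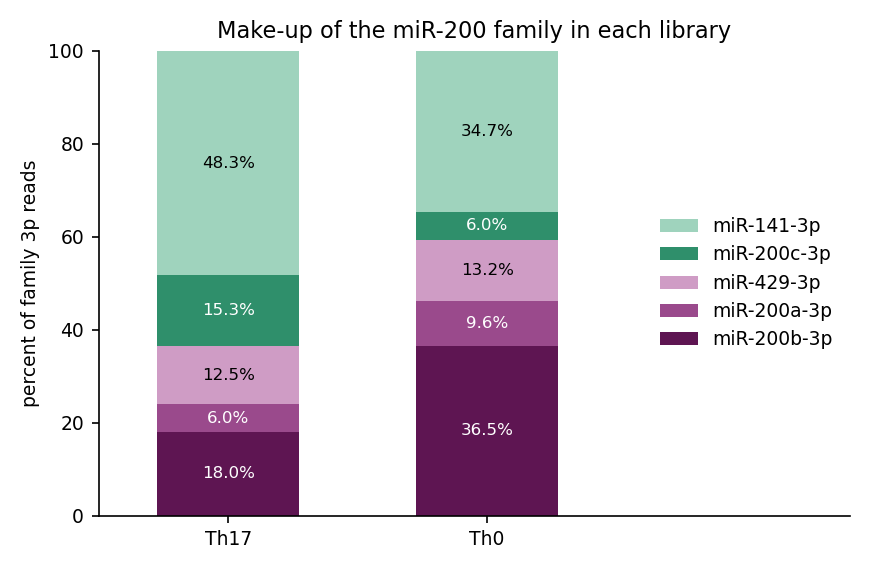
Share of each member among the family's 3p reads, in percent, in the Th17 library (2487 reads) and the Th0 library (3232 reads). Purple members come from the chromosome 4 locus and green members from the chromosome 6 locus, which held 63.6% in Th17 and 40.6% in Th0.

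Summed over both loci, the seeds differed less from each other than the loci did. Members with the seed AAUACUG summed to 94.9 CPM in Th17 and 216 CPM in Th0, 2.27-fold lower (2.11 to 2.45). Members with the seed AACACUG summed to 113 CPM in Th17 and 171 CPM in Th0, 1.52-fold lower (1.41 to 1.64). The ratio of the first seed was 0.668 times that of the second (0.601 to 0.743). This order did not hold within each locus. On chromosome 6 it was reversed, with the ratio of miR-200c-3p (AAUACUG) at 1.83 times that of miR-141-3p (1.51 to 2.23). On chromosome 4 the Th17 over Th0 ratio of miR-200a-3p (AACACUG) was 0.333. It lay between those of miR-200b-3p at 0.264 and miR-429-3p at 0.506. The seed AACACUG made up 54.3% of the family in Th17 (52.3 to 56.3%) and 44.2% in Th0 (42.5 to 46.0%). Over both loci and seeds, the family summed to 208 CPM in Th17 and 387 CPM in Th0, 1.86-fold lower (1.77 to 1.96).

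Members of 1 locus also differed from each other. On chromosome 4 the ratio of miR-429-3p was 1.91 times that of miR-200b-3p (1.59 to 2.31) and 1.52 times that of miR-200a-3p (1.18 to 1.95). miR-200a-3p over miR-200b-3p was at 1.26, with an interval of 1.00 to 1.59 that took in 1 when widened for 10 pairs. On chromosome 6 the ratio of miR-200c-3p was 1.83 times that of miR-141-3p (1.51 to 2.23). Such differences were common in these libraries. In all, 29 pairs of 3p miRNAs came from hairpins within 10000 bases on 1 strand and passed 10 CPM, and 24 of them, or 82.8%, differed beyond their counting interval. The median difference in log2 ratio of the 25 pairs outside the family was 0.42. The differences of the 4 family pairs were 0.94, 0.88, 0.60 and 0.33, at ranks 5, 7, 10 and 20 of all 29 pairs. The pairs at ranks 1 to 4 join arms of the neighbouring hairpins Mir17, Mir18a, Mir19a and Mir20a. Each holds miR-17-3p, miR-18a-3p or miR-20a-3p, minor arms with 16.4%, 26.6% and 1.70% of their hairpin's reads in Th0. In Th17 these shares were 20.1%, 46.9% and 1.95%. Between 3p arms with most of their hairpin's reads, as in the family, the largest other difference was 0.777, for miR-501-3p and miR-362-3p. The family's 0.94 and 0.88 were above it. The limit to such arms was set after the ranks were seen, and few other pairs met it. The family's place among them is a description only. The other pairs here were named after their values were seen. miR-200c-3p and miR-141-3p had intervals on opposite sides of 1. Of the 29 pairs, 2 (6.90%) were of this kind, and the other one was let-7f-1-3p and let-7d-3p, named after its values were seen.

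**Figure D4:**
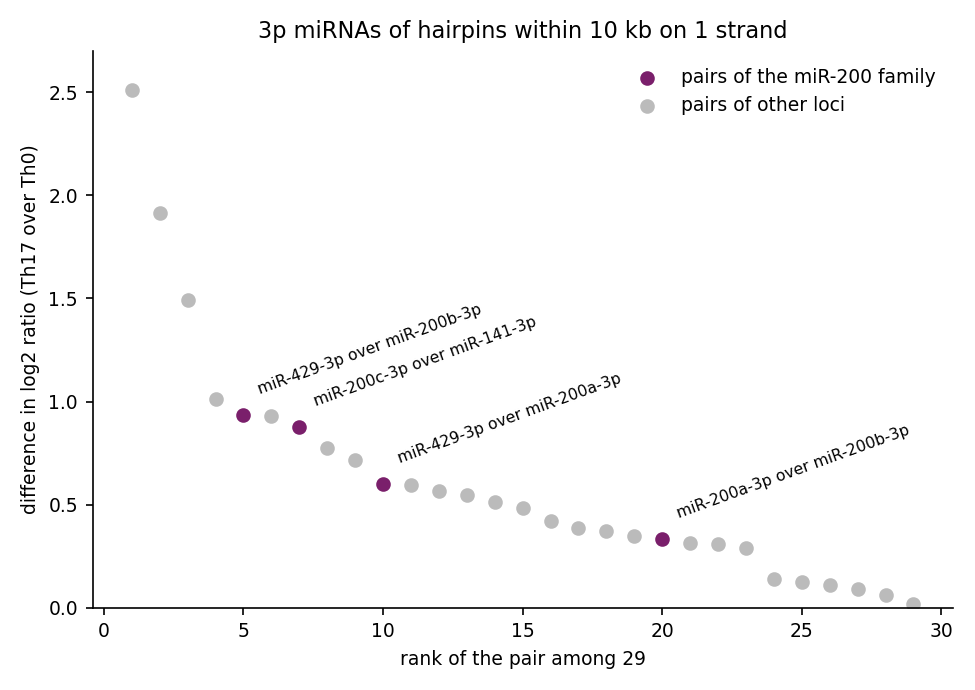
Difference in log2 ratio (Th17 over Th0) between 3p miRNAs whose hairpins lie within 10 kb on 1 strand, for 29 pairs ordered by size. The 4 pairs of the miR-200 family lie between 0.33 and 0.94, within the range of the other 25 pairs, whose largest difference was 2.51. The other 25 pairs mix major and minor arms of their hairpins.

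The partner arms of the same hairpins were read as well. The hairpins of Mir200a and Mir429 are shown with both mature arms in capitals, the 5p arm first, since they are the extremes of the family in arm use (RefSeq, GRCm38.p6, minus strand of chromosome 4).
Mir200a: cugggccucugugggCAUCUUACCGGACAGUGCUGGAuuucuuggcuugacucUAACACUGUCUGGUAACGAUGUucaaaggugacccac
Mir429: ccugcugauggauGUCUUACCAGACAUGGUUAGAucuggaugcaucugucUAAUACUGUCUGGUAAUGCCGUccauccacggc
Most reads came from the 3p arm in all 5 hairpins. miR-429-5p was listed in neither library, and the floor of 3 reads stood at 0.968% of the hairpin's 310 reads in Th17 and 0.701% of its 428 reads in Th0, with exact binomial upper limits of 1.18% in Th17 and 0.858% in Th0. miR-200b-5p had 3 reads in Th17 and 6 in Th0, and miR-200c-5p 2 reads in Th17 and 1 in Th0, too few to compare. miR-141-5p had 27 reads in Th17 and 22 in Th0, a 5p share of 2.20% of the hairpin's reads in Th17 (1.45 to 3.18%) and 1.93% in Th0 (1.21 to 2.90%).

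Mir200a differed. miR-200a-5p had 29 reads or 2.42 CPM in Th17 and 26 reads or 3.11 CPM in Th0, a ratio of 0.778 whose interval of 0.443 to 1.38 held 1, while its 3p arm was 3.0-fold lower. The 5p share of the hairpin's reads was 16.4% in Th17 (11.3 to 22.7%) and 7.74% in Th0 (5.12 to 11.1%). The ratio of the 5p arm was 2.34 times that of the 3p arm (1.28 to 4.28). The difference of 8.65 percentage points, higher in Th17, was the largest rise of 178 hairpins with at least 100 reads in each library, and it rests on the 29 and 26 reads of the 5p arm. It was followed by 7.57 points for Mir126a and 6.93 points for Mir1306, both named after their values were seen. The rank holds for points alone. Relative to Th0, the 5p share of Mir210 rose by more, at 9.57% in Th17 and 3.33% in Th0, and Mir210 was also named after its values were seen. Falls reached further. In 7 hairpins the 5p share was lower in Th17 by more than 8.65 points, and the share of mir-219a, also named after its value was seen, fell by 23.5 points, the most of the 178. Intervals of the libraries lay apart with a higher 5p share in Th17 for 27 of the 178 hairpins, or 15.2%, and with a lower one for as many. Of the 5 family hairpins Mir200a was the one whose intervals lay apart.

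**Figure D5:**
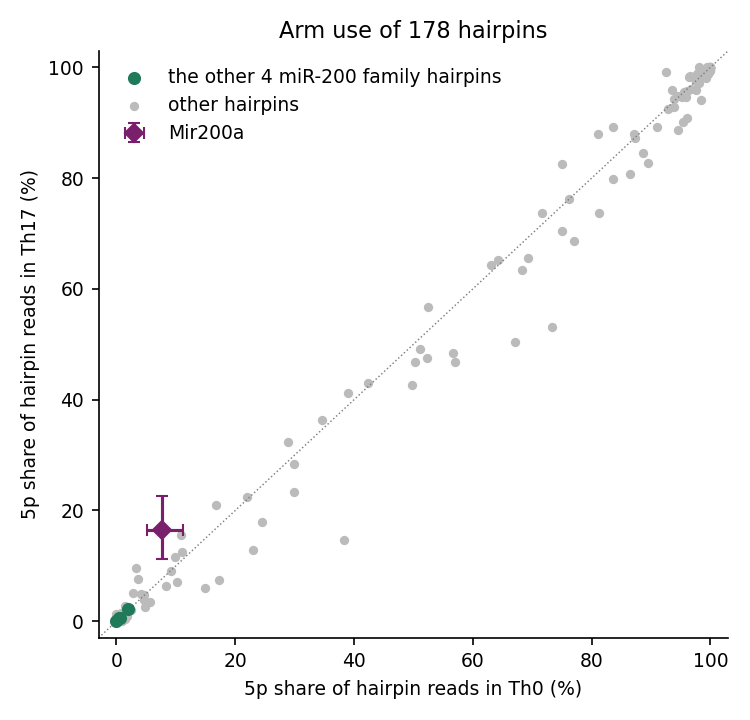
Share of the 5p arm among the reads of each hairpin, in percent, in Th17 (vertical axis) against Th0 (horizontal axis), for 178 hairpins or groups of hairpins with at least 100 reads in each library. Mir200a lies above the diagonal at 16.4% in Th17 and 7.74% in Th0, with exact binomial 95% intervals, and the other 4 family hairpins lie near the origin.

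The miRNAs nearest to each member in level were found by distance over log2(CPM + 0.5) in the 2 libraries, among the 298. No member had another member among its 3 nearest. miR-200b-3p had no close neighbour. The nearest was miR-362-3p at a distance of 0.571, with 49.0 CPM in Th17 and 106 CPM in Th0, followed by miR-296-5p and miR-148a-5p. miR-200a-3p was nearest to miR-5114 (0.119), miR-677-5p and miR-33-5p. The nearest to miR-429-3p were miR-188-5p (0.107), miR-101c and miR-127-3p. For miR-200c-3p they were miR-1948-5p (0.0378), miR-3969 and miR-664-5p, and for miR-141-3p they were miR-467a-5p (0.0964), miR-18a-3p and miR-669a-5p.

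Other miRNAs typical of epithelia went both ways. Of 9 on the list, 5 passed 10 CPM, and by the call rule 0 of these were higher and 0 lower, where 6.71% of the 298 were higher and 13.1% lower. With 5 miRNAs, a count of 0 is near that background. Their median log2 ratio was -0.14, against -0.08 over the 298. miR-203-3p, a miRNA of stratified epithelium, had 21.0 CPM in Th17 and 27.8 CPM in Th0, 1.32-fold lower. miR-192-5p and miR-194-5p, of gut and liver epithelium, were 1.24-fold and 1.10-fold lower. miR-34c-5p and miR-449a-5p, which belong to a family used by multiciliated cells, were 1.80-fold and 1.74-fold higher, with miR-34c-5p at 225 CPM in Th17 and 125 CPM in Th0. miR-34b-5p had 42 reads in Th17 and 18 in Th0, and miR-215-5p 88 reads in Th17 and 19 in Th0, both under 10 CPM.

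Since the Th17 medium held TGF-β, miRNAs reported to respond to TGF-β in other cells were set beside the family. The lists of such miRNAs were chosen with earlier results of these data known, so their counts are descriptions and not independent support. TGF-β came together with the other cytokines, anti-IL-2 and anti-IL-12, and the culture time of Th0 is not given. Its part in these levels cannot be told apart and was not tested. Of 10 reported to be higher, 6 passed 10 CPM and 3 of these were at least 2-fold higher in Th17 cells, against 6.71% of the 298. These were miR-10b-5p, of the Hoxd cluster, at 44.0-fold, miR-155-5p, a miRNA of activated lymphocytes, at 2.21-fold, and miR-99b-5p at 2.05-fold. The median log2 ratio of the 6 was 1.01. The other 3 were miR-181a-5p at 1.98-fold higher, miR-181b-5p at 1.63-fold higher and miR-21a-5p at 1.02-fold lower, which turned to 1.04-fold higher with DESeq2 size factors. miR-99b-5p fell short of 2-fold without the 10 most abundant miRNAs in the totals (1.87-fold), and miR-181a-5p passed it with DESeq2 size factors (2.09-fold). The remaining 4 were under 10 CPM. miR-143-3p had 73 reads in Th17 and 6 in Th0, miR-199a-5p 93 reads in Th17 and 4 in Th0, miR-99a-5p 29 reads in Th17 and 1 in Th0, and miR-145a-5p 1 read in each.

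Of 10 reported to be lower with TGF-β, apart from the miR-200 family, 9 passed 10 CPM, none was 2-fold lower and 1 was 2-fold higher, counts near the background of 13.1% and 6.71% of the 298. That one was miR-29a-3p, which targets collagen mRNAs in fibroblasts, at 2.04-fold higher, or 1.87-fold without the 10 most abundant miRNAs in the totals. miR-29b-3p was 1.76-fold higher and miR-29c-3p 1.55-fold lower. Within the miR-30 family miR-30a-5p was 1.64-fold lower, miR-30e-5p 1.28-fold lower and miR-30b-5p 1.09-fold lower, while miR-30d-5p and miR-30c-5p were 1.28-fold and 1.21-fold higher. The median log2 ratio of the 9 was -0.12, against -0.08 over the 298.

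Markers of other cells were read beside the family. Of the 6 fixed epithelial markers, miR-205-5p had 1 read in Th17 and 0 in Th0, a level under 0.359 CPM (3 reads) in Th0, and miR-375-3p had 5 reads in Th17 and 4 in Th0. The summed level of the 6 was 1514 CPM in Th17 and 1860 CPM in Th0, most of it miR-192-5p. Both endothelial markers, which are the arms of 1 hairpin, were at least 2-fold lower in Th17, as 13.1% of the 298 were. miR-126a-3p had 14.9 CPM in Th17 and 47.7 CPM in Th0, 3.19-fold lower, and miR-126a-5p had 71.0 CPM in Th17 and 143 CPM in Th0, 2.02-fold lower and short of 2-fold with DESeq2 size factors (log2 ratio -0.93). All 5 stromal markers were under 10 CPM on average, with a sum of 27.4 CPM in Th17 and 2.63 CPM in Th0. The myeloid markers summed to 6.93 CPM in Th17 and 3.35 CPM in Th0, and the erythroid markers to 2.17 CPM in Th17 and 0.718 CPM in Th0. The part of other cells in the levels of the miR-200 family was not tested.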

How the data were processed

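Small RNA of 1 Th17 and 1 Th0 library was sequenced after TruSeq small RNA preparation, per the labels' protocols. The authors deposited, for each library, whole-number counts of reads per mature miRNA, not normalized. They also deposited TPM values, which are the counts divided by 1 total per library with no length term, and which were used here for those totals (13070648 reads in Th17 and 9072995 in Th0). The submitters' processing notes name the build mm10. The aligner, the annotation release and the way the stated triplicates were combined are not stated in these sources.

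A miRNA missing from a library was taken as 0 reads, since the lowest listed count was 1. Counts were divided by each library's sum of listed reads (CPM). Folds are ratios of CPM with exact 95% Clopper-Pearson intervals (scipy 1.17.1), given the total of both counts. They cover counting error only. PCR copies were not marked with molecular identifiers and are not independent, so the intervals may be too narrow even for that. Log2 ratios had 0.5 CPM added to both values. Ratios of ratios have exact conditional odds ratio intervals. Intervals of single levels are exact Poisson intervals and those of shares exact binomial ones. A listed 0 was set against a floor of 3 reads. With 1 library per group no p-value was computed. Other library scalings used edgeR 4.0.16 (TMM) and DESeq2 1.42.0 (size factors).

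Clustered pairs were 3p miRNAs with 1 location and 1 precursor in the files (99 at 10 CPM or more). Arm shares joined hairpins that share a mature miRNA. The named miRNAs are the members, their partner arms, the 3 nearest to each member, and the members of the fixed lists. The members and lists were chosen with earlier results of these data known.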

Additional observations from a re-analysis of the deposited data

How the results depend on the processing

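Other library scalings (TMM, DESeq2 size factors, the deposited TPM totals and totals without the 10 most abundant miRNAs) and other added values (0.1 and 1 CPM) changed the direction of no member and of neither locus. Over these settings the log2 ratio ran from -2.04 to -1.83 for miR-200b-3p, from -1.67 to -1.47 for miR-200a-3p, from -1.10 to -0.89 for miR-429-3p, from 0.32 to 0.53 for miR-200c-3p and from -0.54 to -0.34 for miR-141-3p. Totals without the 10 most abundant miRNAs shifted each log2 ratio by about -0.13, and the median over the 298 to -0.21. The chromosome 4 locus then stood at -1.73 and the chromosome 6 locus at -0.38. At this setting 3 of 5 members were at least 2-fold lower, and the count over all miRNAs rose from 39 to 49. Of the alternatives added after seeing the data, the log2 ratio of ratios between the loci, 1.35 with all members, was 0.957 without miR-200b-3p, 2.06 without miR-141-3p, 2.07 within the seed AAUACUG and 1.17 within the seed AACACUG. The count of miRNAs lower in Th17 was 100 with no minimum level, 21 at a mean of at least 50 CPM and 76 at 1.5-fold, and the count of higher ones 69, 13 and 50. At 50 CPM, 1 family member, miR-200b-3p, was lower, and miR-141-3p was the only other member to reach that minimum. miR-200a-3p, miR-429-3p and miR-200c-3p were below it. How many miRNAs reached 50 CPM in all was not counted, so no share is given. No paired analysis was possible because each group has 1 library. Depth limits the partner arms: miR-200b-5p and miR-200c-5p had too few reads for a comparison.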
